A study of Mus musculus with 12 samples.

Results

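The hnRNP and SR genes encode the splicing proteins that coat a new transcript and mark which exons are kept. All genes in the count table whose symbol starts with Hnrnp or Srsf were taken, leaving out pseudogenes and copies of a symbol that carry a number suffix, which gave 31 of 39423 genes, 20 of them hnRNP and 11 SR genes. Of the 31, 30 had enough reads to be tested. RNA was sequenced from 3T3-L1 cells, a line of mouse preadipocytes that differentiate into fat cells when given the hormone cocktail DMI (MDI in the labels), which holds insulin, dexamethasone and isobutylmethylxanthine. All cells were transfected and received DMI: control siRNA (siCtrl, NC in the labels) or siRNA against PRMT1 (siPRMT1), for 24 h or 72 h, with 3 libraries in each of 4 conditions. The sources used here do not say which of the siRNAs against PRMT1 went into sequencing, and the labels do not say whether replicates were separate cultures, so p-values measure only the spread between these libraries.

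hnRNP proteins bind nascent RNA and often repress nearby splice sites, while SR proteins bind exonic enhancers through RNA recognition motifs and recruit the splicing machinery through arginine- and serine-rich tails. PRMT1, an arginine methyltransferase, places asymmetric dimethylarginine on the arginine- and glycine-rich segments of many hnRNPs, and methylation is known to affect where these proteins reside and what they bind. Many genes of both families regulate their own mRNA through alternative exons that send the transcript to decay. The data here are mRNA counts per gene, so they show neither protein, nor methylation, nor which exons were used.

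Total counts ran from 15116462 to 42357137 per library, so that a gene with 0 counts may have had a level of up to 0.0708 to 0.198 CPM (3 counts, scaled to the library total), counting error only. Prmt1, the targeted gene, had 82.9, 83.4 and 91.3 FPKM (counts relative to the length of the gene and the total of the library) in siCtrl and 43.8, 38.6 and 41.4 FPKM in siPRMT1 cells at 24 h. At 72 h it had 111, 120.4 and 140.3 FPKM in siCtrl and 62.0, 71.7 and 68.5 FPKM in siPRMT1 cells. It was lower in siPRMT1 cells at both times, with a log2 fold change of -1.11 at 24 h and -0.88 at 72 h. The adjusted p-values of Prmt1 were 0.000985 and 1.22e-05 by edgeR's quasi-likelihood test. The summed level of 8 adipocyte markers was 148 to 154 FPKM in siCtrl and 112 to 126 FPKM in siPRMT1 cells at 24 h. At 72 h it was 2802 to 3019 FPKM in siCtrl and 2175 to 2384 FPKM in siPRMT1 cells. Preadipocyte and fibroblast markers, 7 genes, summed to 1519 to 1677 FPKM in siCtrl and 1440 to 1538 FPKM in siPRMT1 cells at 24 h. At 72 h they summed to 704 to 753 FPKM in siCtrl and 874 to 990 FPKM in siPRMT1 cells. Markers of macrophages and leukocytes, endothelial cells and muscle summed to at most 2.86, 0.88 and 6.53 FPKM. The 8 interferon response genes summed to 21.9 to 23.3 FPKM in siCtrl and 35.4 to 44.1 FPKM in siPRMT1 cells at 24 h, and to 36.6 to 39.8 and 35.4 to 37.4 FPKM at 72 h. The part of these marker differences in the results on splicing genes was not tested. siCtrl replicate 3 at 24 h stood apart from its group, since the chi-square per gene was 50.6 and 30.8 against the other siCtrl libraries of that time and 4.14 to 15.8 in every other pair of replicates.

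Levels of the 31 genes spanned several orders of magnitude. The highest was Hnrnpa1, a splicing repressor that counteracts SR proteins, at a mean of 311 FPKM over the 12 libraries, with a range of 284 to 354. Next came Hnrnpab, an RNA-binding protein of the A/B type, at 263.5 FPKM, and Hnrnpk, which binds C-rich RNA and DNA through KH domains, at 239.5 FPKM. These 3 stood at or above the 99.2 percentile of genes with a count. Among SR genes, Srsf5 was highest at 137.9 FPKM, followed by Srsf2, an enhancer-binding factor also called SC35, at 98.5 FPKM and Srsf6 at 91.5 FPKM. The other hnRNP genes of the A/B group lay in the upper range, with Hnrnpa2b1 at 204.9 FPKM, Hnrnpa3 at 98.7 FPKM and Hnrnpa0 at 67.6 FPKM.

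At the low end, Hnrnpr had 16.96 FPKM, Srsf4 8.21 FPKM, Srsf1 3.92 FPKM, Hnrnph3 2.94 FPKM and Hnrnpu 0.524 FPKM. The low levels of Hnrnpu and Srsf1 hold only for reads under their own names. A suffixed name of Hnrnpu had condition means of 25.3 to 28.8 FPKM. For a suffixed name of Srsf1 they were 10.8 to 14.3 FPKM. Hnrnph3 and Srsf4 share 72.9% and 42.2% of their exon bases with genes on the opposite strand. The part of this sharing in their low levels was not tested. Srsf12, an SR-like splicing repressor, had 0 to 4 counts per library and failed the filter on low counts. Summed over the 20 hnRNP genes, the level was 1989 to 2360 FPKM per library, and over the 11 SR genes 474 to 608.8 FPKM. The hnRNP genes took 0.649% to 0.772% of the counts in a library and the SR genes 0.141% to 0.177%. Replicates were close for most members: the coefficient of variation of FPKM over 3 libraries had a median of 7.39% in siCtrl and 3.77% in siPRMT1 cells at 24 h, and of 6.25% and 7.13% at 72 h, over the 29 genes with a mean above 1 FPKM.

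**Figure D1:**
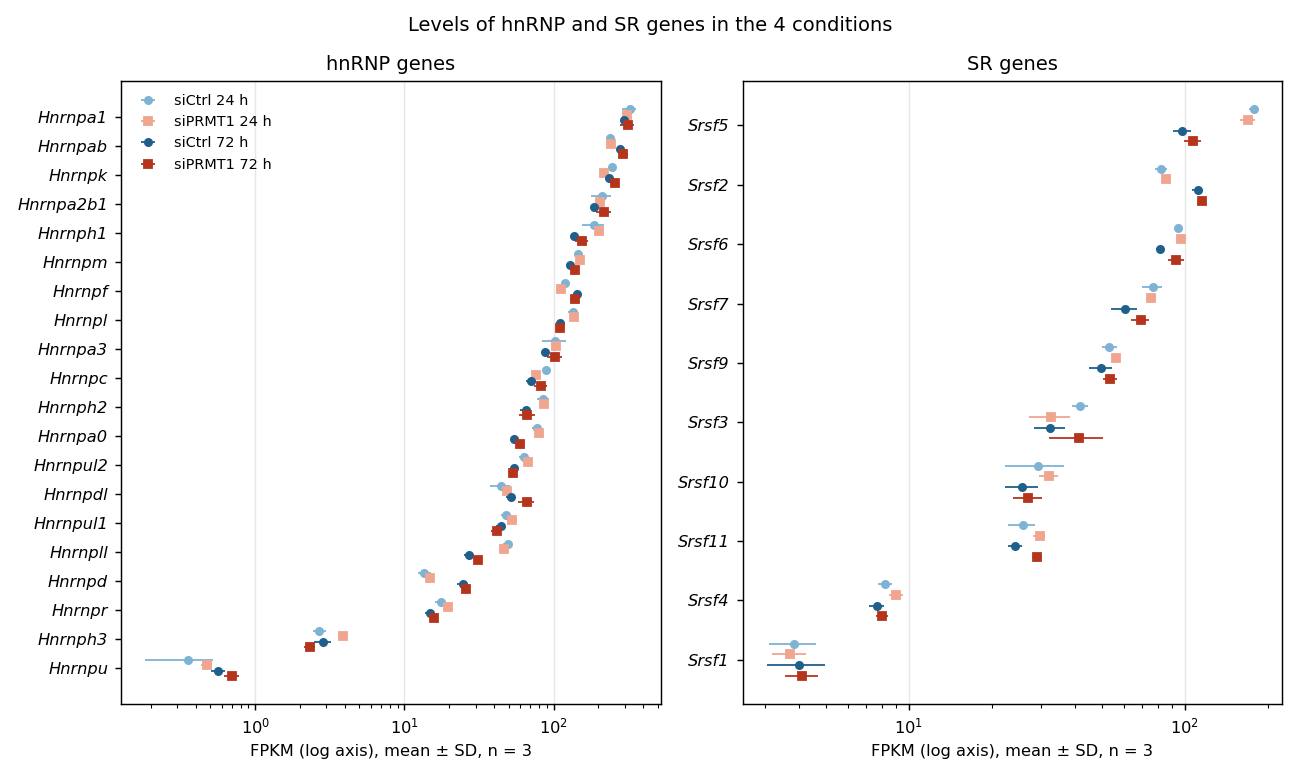
Mean level of each hnRNP gene (left) and SR gene (right) in FPKM on a log axis, with the SD over 3 libraries, for siCtrl and siPRMT1 cells at 24 h and 72 h of DMI. Most genes lie above 10 FPKM in all 4 conditions, while Hnrnph3, Hnrnpu, Srsf1 and Srsf4 lie below it. Hnrnpu and Srsf1 are drawn under their own names only, and Srsf12 is not drawn.

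The reads of Hnrnpu, Srsf1 and Srsf3 were split in the count table, which lists these genes once on a chromosome and again, with a number suffix, on a scaffold outside the chromosomes. Hnrnpu, also called SAF-A, which ties RNA to chromatin, had 36 to 189 counts per library under its own name and 1543 to 4081 under the suffixed name, so its own name held 2.03% to 7.69% of the sum. Srsf1, the founding SR protein, held 21.1% to 29.3% of its sum under its own name, and Srsf3, the shortest SR protein and an adaptor for mRNA export, 94.3% to 96.3%. Values of Hnrnpu and Srsf1 under their own names are therefore a small share of the reads on the gene, so the sums were tested as well. Summed, neither Hnrnpu nor Srsf1 passed an adjusted p of 0.05 by edgeR in any of the 5 comparisons, and the sums of Srsf3 are given with its results.

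**Figure D2:**
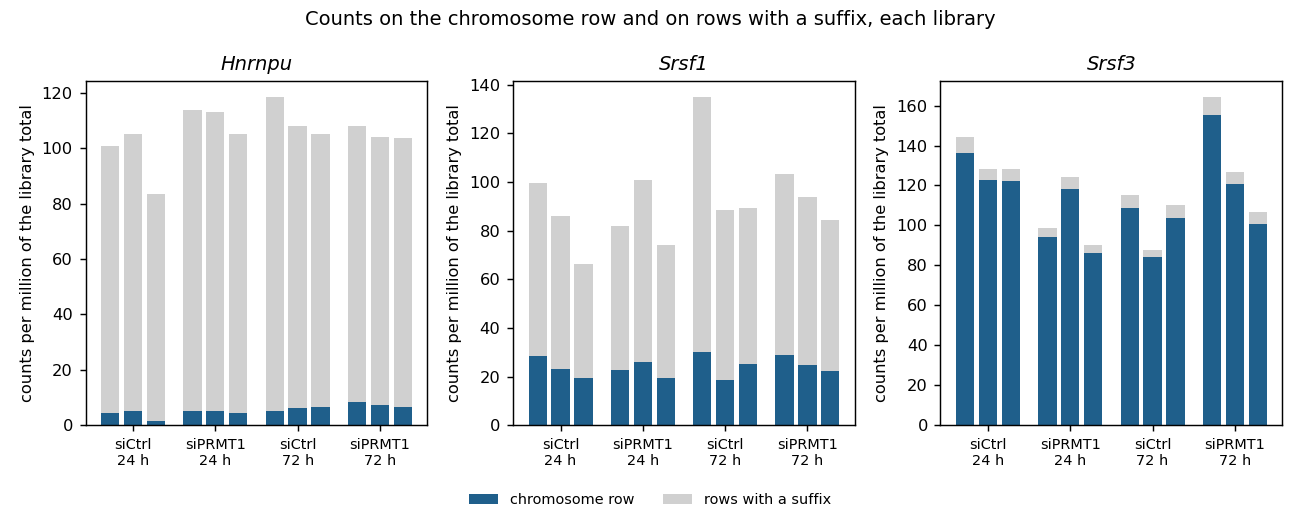
CPM, counts scaled to the library total, of Hnrnpu, Srsf1 and Srsf3, stacked as counts under the gene's own name on a chromosome (blue) and under suffixed names (grey), 1 bar per library in replicate order. For Hnrnpu nearly all counts are grey, for Srsf1 most, and for Srsf3 few.

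Of the 31 genes, 9 share exon bases with a gene on the opposite strand. Since the sources used here do not give the strand setting of the counting, reads in these bases cannot be told apart. The share was largest for Hnrnph3, where 1764 of 2419 exon bases, or 72.9%, also belong to Rufy2, and for Srsf4, where 42.2% belong to Gm12992. It was 19.6% for Hnrnpab, 13.8% for Hnrnpf, 8.64% for Hnrnpll and 6.02% for Hnrnpk, and under 4% for Hnrnpu, Srsf2 and Hnrnpul2.

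The first comparison asked what PRMT1 knockdown did at 24 h. Of the 30 hnRNP and SR genes tested, 0 were called higher and 0 lower, where 3.56% of the 13689 genes tested were called, 1.95% higher and 1.61% lower. A call needed an adjusted p below 0.05 together with a log2 fold change beyond 0.5 in either direction. At any fold change, Hnrnph3 was higher and Hnrnpc lower, which is 2 of 30, against 7.6% of all genes tested, 3.22% higher and 4.38% lower. By edgeR 4 of the 30, or 13.3%, had an unadjusted p under 0.05, beside 24.6% of all genes tested, and DESeq2 also called 0 in each direction with the fold threshold and 1 higher and 3 lower without it. Of all genes tested, DESeq2 had 4.17% higher and 6.08% lower at any fold change. In whole cultures, fewer cells of a type and less RNA per cell cannot be told apart.

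Hnrnpc, which binds uridine tracts and packages nascent transcripts, had 89.4, 88.0 and 89.1 FPKM in the siCtrl libraries at 24 h and 76.6, 77.5 and 76.2 FPKM in the siPRMT1 libraries. The 3 siPRMT1 libraries lay below all siCtrl libraries, with means of 88.9 ± 0.754 and 76.8 ± 0.65 (SD, n = 3). Its log2 fold change was -0.26 with a standard error of 0.0531 and an adjusted p of 0.0252 by edgeR's quasi-likelihood test. When 1 library at a time was left out, Hnrnpc stayed between -0.29 and -0.25 and passed the adjusted p in 1 of 6 fits, the fit without siCtrl replicate 3. In that fit 14.7% of all genes tested were higher and 15% lower at any fold change. In the other fits 0.443% to 1.46% of all genes tested were higher and 0.508% to 2.08% lower, so few genes of any kind passed there.

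Hnrnph3, a relative of hnRNP H, had 2.39, 2.82 and 2.88 FPKM in siCtrl and 3.65, 4.15 and 3.82 FPKM in siPRMT1 cells at 24 h. All siPRMT1 libraries were above all siCtrl libraries. The log2 fold change was 0.48 with a standard error of 0.118 and an adjusted p of 0.0437 by edgeR. It passed the adjusted p in 1 of 6 fits with 1 library left out, again the fit without siCtrl replicate 3, where it was 0.54. Rufy2, which shares most of the exon bases of Hnrnph3, had a log2 fold change of 0.18 with an adjusted p of 0.314 by edgeR in this comparison.

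Hnrnpk and Srsf3 also showed no overlap between the groups at 24 h, both lower in siPRMT1 cells, without passing the adjusted p. Hnrnpk had 249, 250.1 and 236 FPKM in siCtrl and 215, 226 and 214 FPKM in siPRMT1 cells, a log2 fold change of -0.22 with a standard error of 0.0557 and an adjusted p of 0.0517 by edgeR. Srsf3 had 44.8, 40.4 and 40.1 FPKM in siCtrl and 31.0, 38.9 and 28.3 FPKM in siPRMT1 cells, a log2 fold change of -0.40 with a standard error of 0.121 and an adjusted p of 0.0825 by edgeR. Summed with its suffixed name, Srsf3 was at -0.42 with an adjusted p of 0.0771 by edgeR. In all, 1 member lay above and 3 lay below without overlap in CPM after TMM scaling of the libraries compared, against 31.5% of all genes tested, 15.5% above and 16% below.

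The remaining 26 genes tested did not pass the adjusted p at 24 h, and their log2 fold changes ran from -0.13 for Hnrnpll to 0.36 for Hnrnpu. Summed with its suffixed name, Hnrnpu was at 0.13. Over all 30 the sign was positive in 13 and negative in 17, with a median of -0.02, beside 0.01 over all genes tested. Adding suffixed names gave 12 positive and 18 negative. With library totals in place of TMM scaling, the signs turned to 20 positive and 10 negative, Hnrnpc missed the adjusted p and Hnrnph3 was called higher at 0.53. That scaling moved the share of higher genes among all calls from 54.8% to 68.6%. Without siCtrl replicate 3 at 24 h, 1 member was higher and 8 were lower at any fold change, Hnrnpa1, Hnrnpa2b1, Hnrnpa3, Hnrnpc, Hnrnpf, Hnrnpk, Hnrnpll and Srsf3. Of all genes tested without that library, 14.7% were higher and 15% lower at any fold change.

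At 72 h the same comparison again gave 0 members called higher and 0 lower, where 6.65% of the 14039 genes tested were called, 2.84% higher and 3.8% lower. At any fold change, Hnrnpdl and Srsf11 were higher and 0 were lower, against 16.5% of all genes tested, 7.54% higher and 8.94% lower. By edgeR 12 of the 30, or 40.0%, had an unadjusted p under 0.05, beside 31.3% of all genes tested, and DESeq2 called 0 in each direction with the fold threshold and 2 higher without it. Of all genes tested, DESeq2 had 7.13% higher and 8.38% lower at any fold change.

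Hnrnpdl, a relative of Hnrnpd that binds AU-rich RNA, had 53.5, 47.6 and 53.4 FPKM in siCtrl and 74.9, 62.3 and 60.5 FPKM in siPRMT1 cells at 72 h. The siPRMT1 libraries were all above the siCtrl libraries, and replicate 1 was the highest. The log2 fold change was 0.35 with a standard error of 0.086 and an adjusted p of 0.0115 by edgeR's quasi-likelihood test. It passed in all 6 fits with 1 library left out, with values between 0.24 and 0.40, the lowest without siPRMT1 replicate 1.

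Srsf11, an SR-related splicing protein, had 25.0, 22.7 and 25.2 FPKM in siCtrl and 30.4, 29.0 and 28.1 FPKM in siPRMT1 cells. The groups did not overlap. Its log2 fold change was 0.26 with a standard error of 0.0694 and an adjusted p of 0.0202 by edgeR, and it passed in 3 of 6 fits with 1 library left out. It missed the adjusted p without siCtrl replicate 2 at 0.101, without siPRMT1 replicate 1 at 0.0515 and without siPRMT1 replicate 2 at 0.0662.

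Hnrnpa3, an hnRNP A/B protein, came next with 90.8, 87.2 and 83.0 FPKM in siCtrl and 115, 96.3 and 95.1 FPKM in siPRMT1 cells at 72 h. Its groups did not overlap either, but the log2 fold change of 0.23 had an adjusted p of 0.0734 by edgeR. In CPM after TMM scaling of the libraries compared, 9 members lay above without overlap in siPRMT1 cells at 72 h and 0 below. They were Hnrnpa2b1, Hnrnpa3, Hnrnpdl, Hnrnpk, Hnrnpll, Hnrnpm, Hnrnpu, Srsf11 and Srsf6. Hnrnpk overlapped in FPKM and in CPM with the 12 libraries scaled together, where 8 lay above. Hnrnpu lay above only under its own name. Summed with its suffixed name and scaled to the library total, it had 118.3, 108.2 and 105.2 CPM in siCtrl cells. In siPRMT1 cells that sum was 107.9, 104.1 and 103.8 CPM, which overlaps. Among all genes tested 34.9% did not overlap, 16.8% above and 18.1% below.

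The sign at 72 h was positive in 25 of the 30 genes, including all 10 SR genes tested, with values from -0.29 for Hnrnph3 to 0.35 for Hnrnpdl. The median was 0.11, beside 0.01 over all genes tested. The 5 negative genes were Hnrnph3, Hnrnpul1, Hnrnpf, Hnrnpul2 and Hnrnpl, of which 0 passed the adjusted p. These signs are of reads under the genes' own names. With suffixed names added, Srsf1 at -0.16 and Hnrnpu at -0.08 were negative as well. The signs were then 23 positive and 7 negative, with a median of 0.095. The summed level of 12 markers of proliferating cells was also higher at 72 h, at 804 to 826 FPKM in siPRMT1 and 746 to 783 FPKM in siCtrl cells, with 10 of the 12 positive and 1 past the adjusted p by edgeR, and its part was not tested. siPRMT1 replicate 1 at 72 h moved with this sign: 25 of the 30 members were higher in it than the mean of the other siPRMT1 libraries, by a median of 0.17 on the log2 scale, while 26 of 30 were lower in replicate 3. Without replicate 1, 22 of 30 genes were positive with a median of 0.05, and Hnrnpdl alone passed the adjusted p at 0.24.

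**Figure D3:**
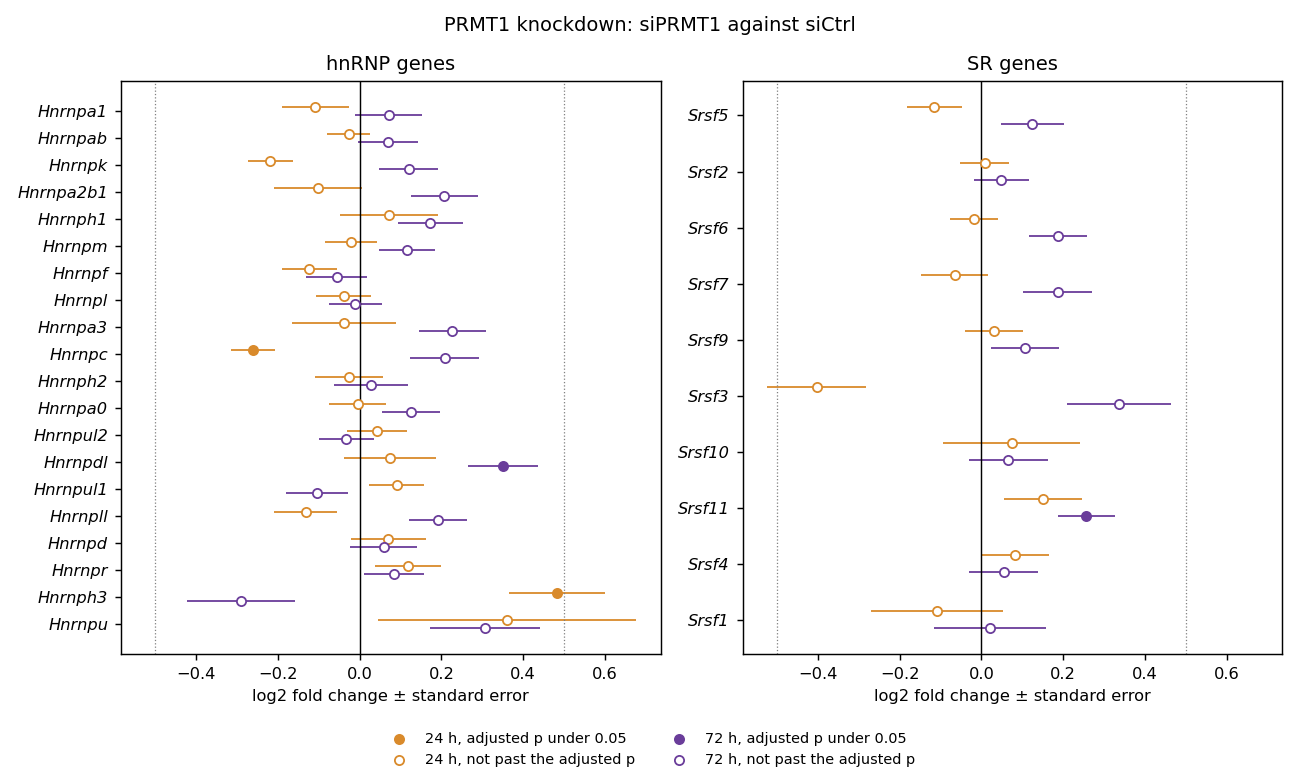
Log2 fold change of siPRMT1 against siCtrl with its standard error for each hnRNP gene (left) and SR gene (right) at 24 h (orange) and 72 h (purple) of DMI, filled where the edgeR adjusted p was under 0.05; dotted lines mark 0.5 in both directions. Filled points are Hnrnpc and Hnrnph3 at 24 h and Hnrnpdl and Srsf11 at 72 h, and all lie within the dotted lines.

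Whether the knockdown effect differed between the times was tested as the interaction of siRNA and time over all 12 libraries. A positive value means a more positive effect at 72 h. Srsf3 was called higher and Hnrnph3 lower, which is 2 of 30, against 8.24% of the 14612 genes tested, 4.77% higher and 3.47% lower. At any fold change, Hnrnpc, Hnrnpk and Hnrnpll were added in the higher direction, 5 of 30 in all, against 12.3% of all genes tested, 7.69% higher and 4.63% lower.

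Srsf3 had an interaction of 0.76 with a standard error of 0.206 and an adjusted p of 0.0272 by edgeR's quasi-likelihood test. At 72 h it had 35.8, 27.7 and 34.1 FPKM in siCtrl and 51.0, 39.6 and 33.2 FPKM in siPRMT1 cells, where the groups overlapped, so siPRMT1 was lower than siCtrl without overlap at 24 h and higher with overlap at 72 h. The value at 72 h alone was 0.34 with an adjusted p of 0.0843 by edgeR. Summed with its suffixed name, the interaction was 0.76 with an adjusted p of 0.0269 by edgeR.

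The interaction of Srsf3 ran from 0.57 to 0.91 over the 12 fits with 1 library left out and passed the adjusted p in 6 of them. It missed at 0.0512 without siCtrl replicate 1 and 0.0588 without siCtrl replicate 2 at 24 h, and at 0.0691 and 0.0791 without siPRMT1 replicates 1 and 3 at 24 h. At 72 h it missed at 0.0764 without siCtrl replicate 2 and at 0.0649 without siPRMT1 replicate 1, by edgeR. Without siCtrl replicate 3 at 24 h it was 0.75 with an adjusted p of 0.0115.

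Hnrnpc had an interaction of 0.49 with a standard error of 0.106 and an adjusted p of 0.00835 by edgeR. At 72 h it had 68.5, 67.5 and 77.2 FPKM in siCtrl and 91.9, 78.4 and 77.0 FPKM in siPRMT1 cells, which overlap, with a log2 fold change of 0.21 and an adjusted p of 0.103 by edgeR. It passed the adjusted p of the interaction in 12 of 12 fits with 1 library left out, from 0.40 to 0.55.

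Hnrnpk had an interaction of 0.36 with a standard error of 0.0867 and an adjusted p of 0.0151 by edgeR. At 72 h it had 248, 229 and 233 FPKM in siCtrl and 279, 249 and 246 FPKM in siPRMT1 cells. It passed in 10 of 12 fits with 1 library left out and missed at 0.0694 without siCtrl replicate 2 and at 0.0502 without siPRMT1 replicate 3, both at 24 h. Hnrnpll, which binds CA repeats as its relative Hnrnpl does, had an interaction of 0.34 with a standard error of 0.0999 and an adjusted p of 0.037 by edgeR, and passed in 3 of 12 fits.

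Hnrnph3 went the other way, with an interaction of -0.76, a standard error of 0.179 and an adjusted p of 0.0133 by edgeR. Its 72 h levels were 3.23, 2.87 and 2.46 FPKM in siCtrl and 2.28, 2.55 and 2.16 FPKM in siPRMT1 cells, which overlap. It passed in 12 of 12 fits with 1 library left out, from -0.86 to -0.66. For Rufy2 on the opposite strand the interaction was 0.29 with an adjusted p of 0.234 by edgeR, and its own log2 fold change at 72 h was 0.45 with an adjusted p of 0.0117. The sum of the reads on both genes was not tested.

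The other 25 genes tested did not pass the adjusted p of the interaction, and the sign over all 30 was positive in 24 and negative in 6, with a median of 0.12, beside 0.02 over all genes tested. Adding suffixed names gave 23 positive and 7 negative. Without siCtrl replicate 3 at 24 h, 8 members passed in the higher direction and Hnrnph3 in the lower, beside 11.8% and 13.2% of all genes tested. With library totals in place of TMM scaling, 3 passed in the higher direction and 1 in the lower, the signs were 20 positive and 10 negative, and the share of higher genes among all calls moved from 57.9% to 42.2%. At any fold change, 5.49% of all genes tested passed in the higher direction with that scaling and 6.86% in the lower.

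**Figure D4:**
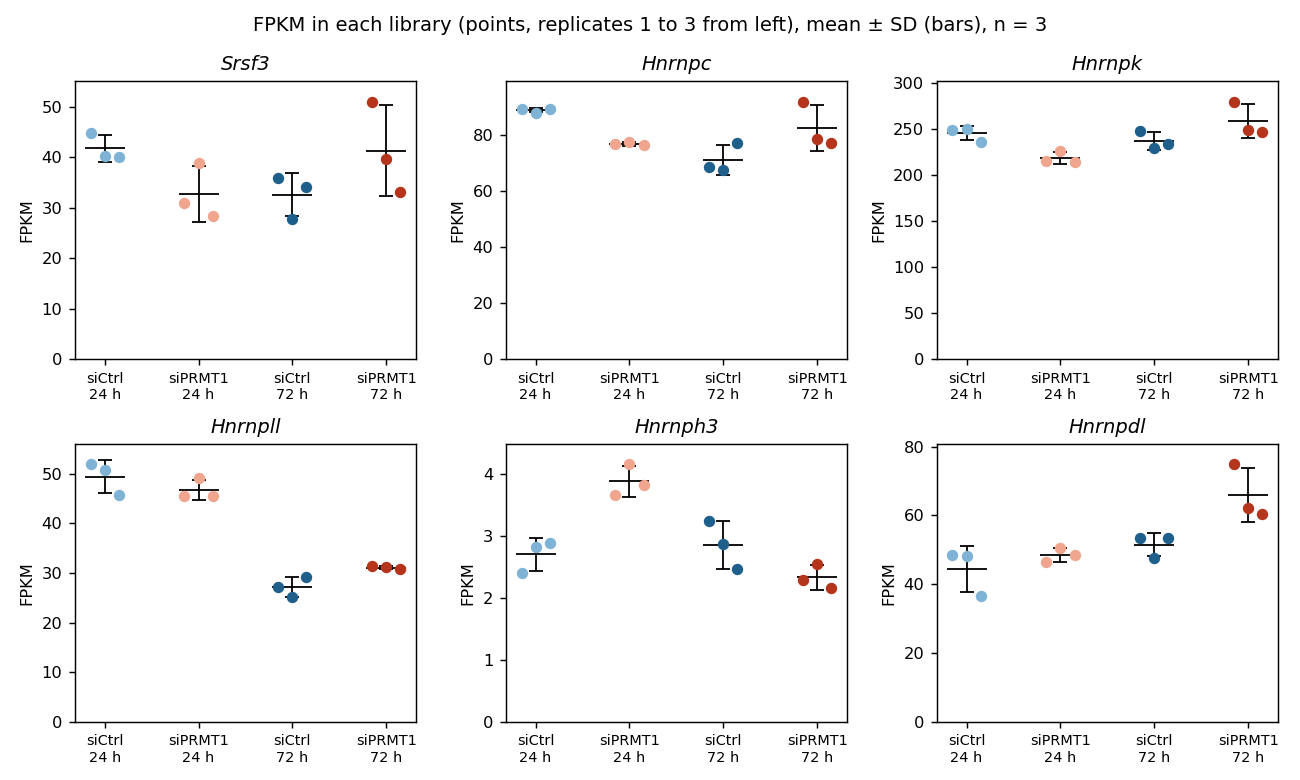
FPKM of Srsf3, Hnrnpc, Hnrnpk, Hnrnpll, Hnrnph3 and Hnrnpdl in each of the 12 libraries, with the mean and SD over 3 libraries per condition and axes that start at 0. Srsf3, Hnrnpc and Hnrnpk are lower in siPRMT1 than in siCtrl cells at 24 h without overlap, and Hnrnph3 is higher.

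The upstream sequences of Hnrnpc, Hnrnpk and Srsf3 are shown because these 3 genes were lower without overlap at 24 h and passed the test of the interaction, a choice made after their values were seen. Each holds a CCAAT box, the sequence that the factor NF-Y is known to bind. They are RefSeq sequences on GRCm38.p6, written 5′ to 3′ on the strand of the gene and taken upstream of a transcript start, leaving out 7 bases for Hnrnpc and 52 for Hnrnpk that lie in exons of the gene. The stretches of Hnrnpc and Srsf3 end at the base before the gene, and that of Hnrnpk lies within the gene, upstream of an internal start and outside its exons. Capitals mark CCAAT or its reverse complement ATTGG.
Hnrnpc, chr14:52104029-52104271, minus strand: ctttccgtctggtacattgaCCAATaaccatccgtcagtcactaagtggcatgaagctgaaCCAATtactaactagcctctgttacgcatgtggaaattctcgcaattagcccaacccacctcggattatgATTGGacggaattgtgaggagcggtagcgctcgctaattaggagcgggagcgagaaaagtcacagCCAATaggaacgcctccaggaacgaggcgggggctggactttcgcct
Hnrnpk, chr13:58402170-58402367, minus strand: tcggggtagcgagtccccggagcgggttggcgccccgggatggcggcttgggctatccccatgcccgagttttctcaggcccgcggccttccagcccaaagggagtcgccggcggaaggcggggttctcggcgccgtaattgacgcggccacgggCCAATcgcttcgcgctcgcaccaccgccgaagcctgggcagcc
Srsf3, chr17:29032410-29032659, plus strand: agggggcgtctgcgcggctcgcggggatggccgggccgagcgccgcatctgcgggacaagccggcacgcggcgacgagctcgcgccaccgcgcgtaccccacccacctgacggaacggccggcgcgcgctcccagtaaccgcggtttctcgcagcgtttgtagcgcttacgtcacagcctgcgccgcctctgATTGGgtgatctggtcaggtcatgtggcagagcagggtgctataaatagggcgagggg
The stretch of Hnrnpc holds 4 copies, that of Hnrnpk 1 and that of Srsf3 1. With the bases left out, Hnrnpk has 2, the second running from the printed stretch into its exon.

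RefSeq promoters, 250 bases before to 50 after a start, were found for 29 of the 31 genes, with 41 promoters in all. Hnrnpll and Hnrnpul2 were not matched. CCAAT on either strand stood in 21 of the 41 promoters, or 51.2%, beside 37.4% of all 32851 promoters in the table. By gene it stood in 17 of the 29, so it is not particular to Hnrnpc, Hnrnpk and Srsf3. CACGTG, the E-box of Myc-type factors, stood in 12.2% beside 7.15%, and CCGGAAG, an Ets-type site, in 24.4% beside 8.86%. The palindromic NRF1 motif stood in 2.44% beside 0.971%. None of these motifs holds another, some genes have several promoters whose windows can overlap, and the shares are a description, with no test.

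The course of DMI was compared within each siRNA. In siCtrl cells, 1 of the 30 genes was called higher at 72 h than at 24 h and 4 were called lower, against 43.2% of the 13829 genes tested, 22.7% higher and 20.4% lower. At any fold change, 3 were higher and 14 lower, against 58.9% of all genes tested, 30.2% higher and 28.7% lower. Without overlap, 4 lay above and 16 below, against 64.4%, 33.1% above and 31.4% below. The median was -0.25, beside -0.004 over all genes tested, and 23 of 30 were negative. Summed markers of proliferating cells, 12 genes, stood at 1155 to 1226 FPKM at 24 h and at 746 to 783 FPKM at 72 h in siCtrl cells, with 1165 to 1201 and 804 to 826 FPKM in siPRMT1 cells, and their part in the change of the splicing genes was not tested.

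Hnrnpd, also called AUF1, which directs decay of mRNAs with AU-rich elements, was the gene called higher. It had 14.44, 14.42 and 12.04 FPKM at 24 h and 25.87, 25.96 and 22.06 FPKM at 72 h in siCtrl cells, with no overlap. Its log2 fold change was 0.78 with a standard error of 0.101 and an adjusted p of 9.38e-05 by edgeR's quasi-likelihood test. In siPRMT1 cells Hnrnpd went from 14.0, 14.7 and 15.8 FPKM to 27.5, 24.1 and 25.6 FPKM, again 0.78, with an adjusted p of 2.06e-07.

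Among the genes that fell, Hnrnpll and Srsf5 fell most. Hnrnpll had 51.9, 50.7 and 45.7 FPKM at 24 h and 27.1, 25.1 and 29.1 FPKM at 72 h in siCtrl cells, a log2 fold change of -0.94 with an adjusted p of 1.18e-05 by edgeR. In siPRMT1 cells it had 45.6, 49.1 and 45.5 FPKM at 24 h and 31.3, 31.2 and 30.8 FPKM at 72 h, a log2 fold change of -0.60 with an adjusted p of 7.52e-07 by edgeR. The positive interaction of Hnrnpll given above is the test of that difference.

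Srsf5, an enhancer-binding SR protein also called SRp40, had 181, 181 and 169.5 FPKM at 24 h and 107, 92.8 and 94.3 FPKM at 72 h in siCtrl cells, a log2 fold change of -0.93 with an adjusted p of 5.79e-06 by edgeR. In siPRMT1 cells it had 158, 171 and 179 FPKM at 24 h and 116, 105 and 101 FPKM at 72 h, with a log2 fold change of -0.67 and an adjusted p of 1.07e-06 by edgeR. The groups did not overlap in either case, and the interaction of 0.26 had an adjusted p of 0.118 by edgeR.

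Hnrnpa0 and Hnrnph1, a G-run binder of the H/F group, were the other genes called lower in siCtrl cells, at -0.56 and -0.51 with adjusted p of 0.000323 and 0.00356 by edgeR. Genes that fell in siCtrl cells with smaller changes were Hnrnph2, Srsf3, Srsf7, Hnrnpc, Hnrnpl, Hnrnpr, Hnrnpa3, Srsf6, Hnrnpul2 and Hnrnpm, from -0.45 to -0.26. Srsf2 rose by 0.37 and Hnrnpf by 0.20. Srsf3 summed with its suffixed name was at -0.43 with an adjusted p of 0.00665 by edgeR. Without siCtrl replicate 3 at 24 h, 3 were higher and 19 lower at any fold change, beside 34.8% and 34.4% of all genes tested.

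In siPRMT1 cells, 2 of the 30 genes were called higher at 72 h and 3 lower, against 36.5% of the 14224 genes tested, 19% higher and 17.4% lower. At any fold change, 7 were higher and 11 lower, against 63.4% of all genes tested, 32.2% higher and 31.2% lower. Without overlap, 7 lay above and 12 below, against 66.6%, 33.8% above and 32.8% below. The median was -0.07, beside 0.002 over all genes. The genes called higher were Hnrnpd and Hnrnpu, the latter at 0.55 with an adjusted p of 0.00146 by edgeR. That call held for the small share of Hnrnpu reads under its own name: summed with the suffixed name, Hnrnpu was at -0.09 with an adjusted p of 0.224. The genes called lower were Hnrnph3 at -0.75, Srsf5 and Hnrnpll. Without siPRMT1 replicate 1 at 72 h, 7 were higher and 16 lower at any fold change, beside 32.1% and 31.5% of all genes tested.

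**Figure D5:**
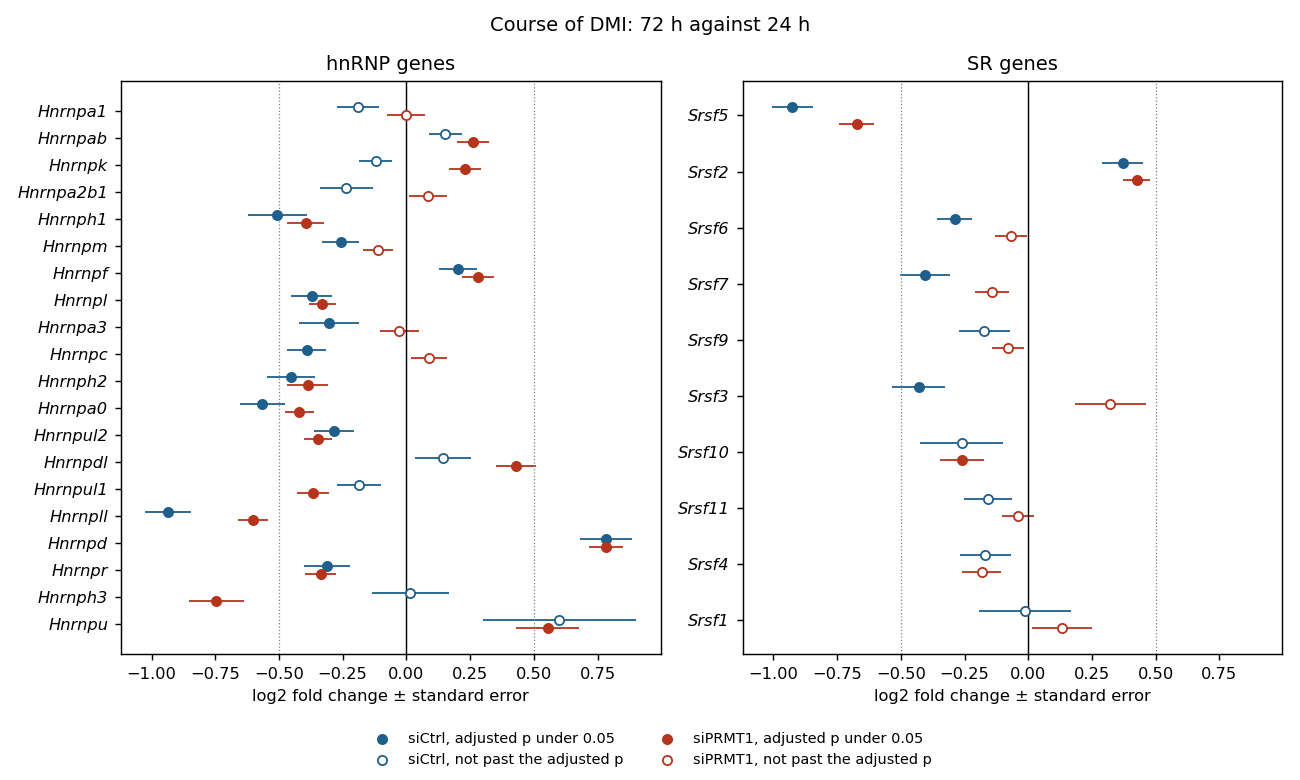
Log2 fold change of 72 h against 24 h of DMI with its standard error for each hnRNP gene (left) and SR gene (right) in siCtrl (blue) and siPRMT1 cells (red), filled where the edgeR adjusted p was under 0.05; dotted lines mark 0.5 in both directions. Hnrnpd lies at 0.78 in both, Hnrnpll and Srsf5 lie furthest below 0 in siCtrl cells, and Srsf3 lies at -0.43 in siCtrl and 0.32 in siPRMT1 cells, the latter not past the adjusted p.

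Other splicing genes were described from 4 lists. Among 16 hnRNP proteins that carry other names, 0 passed the adjusted p at 24 h by edgeR, beside 7.6% of all genes tested at any fold change. An unadjusted p under 0.05 was reached by 4 of the 16, beside 24.6% of all genes tested, and the median was 0.09. At 72 h Raly, an hnRNP C relative, was higher at 0.23 and Dazap1, an hnRNP-type RNA-binding protein, was lower at -0.22, at any fold change. Of all genes tested, 7.54% were higher and 8.94% lower in that way. Dazap1 and Taf15, an FET family protein, had interactions of -0.52 and -0.50 with adjusted p of 0.00831 and 0.0267 by edgeR. They are 2 of 16 called lower in the interaction, against 3.47% of all genes tested. Of 21 SR-related regulators and SR protein kinases, Rnps1, part of the exon junction complex, was higher at 24 h at 0.36 and Srek1, an SR-related splicing factor, at 72 h at 0.30, both under the fold threshold. At any fold change, 3.22% of all genes tested were higher at 24 h and 7.54% at 72 h. The SR protein kinases Srpk1 and Srpk2 and the Clk kinases did not pass the adjusted p in either knockdown comparison.

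Of 24 other splicing regulators, Celf2, which binds GU-rich elements, was called lower at 24 h at -0.53 with an adjusted p of 0.012 by edgeR, at 5.67 ± 0.47 FPKM in siCtrl and 4.06 ± 0.165 FPKM in siPRMT1 cells (SD, n = 3). Rbm4 was called in the interaction at -1.25 with an adjusted p of 0.0141 by edgeR. Its levels were low, at 0.78 ± 0.272 FPKM in siCtrl and 1.41 ± 0.0709 FPKM in siPRMT1 cells at 24 h. At 72 h they were 2.09 ± 0.371 and 1.59 ± 0.122 FPKM. Fits with 1 library left out were not read out for genes of the 4 lists. Tia1 and Matr3 were higher at 72 h, at 0.32 and 0.31 under the fold threshold. Of all genes tested, 1.61% were called lower at 24 h and 3.47% lower in the interaction. At 72 h 7.54% were higher at any fold change. Of 37 core spliceosome genes, 2 were called higher at 72 h and 1 lower, where 6.65% of all genes tested were called. Snrpg and Snrpe, subunits of the Sm ring, were higher at 0.58 and 0.55 with adjusted p of 0.00299 and 0.0128 by edgeR, and Snrpc, a U1 protein, was lower at -0.55 with an adjusted p of 0.00347. The same 3 genes were called in the interaction, at 0.88, 0.86 and -0.69 with adjusted p of 0.00404, 0.0135 and 0.0065 by edgeR. Of all genes tested, 8.24% were called in the interaction. Median log2 fold changes of the 37 were -0.04 at 24 h and 0.02 at 72 h.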

How the data were processed

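RNA sequencing covered 12 libraries of 3T3-L1 cells. Per the labels, the authors used cutadapt 1.11, HISAT2 2.1.0 and RSEM 1.2.6 with the mm10 genome. The authors deposited raw counts of each gene, as whole numbers, and FPKM. The deposited FPKM equal counts divided by the length of the gene and the total of the library within 0.005. The counting tool, the strand setting and the handling of reads with several positions are not given in the sources used here. Names with a number suffix are 2266, of which 2249 lie on scaffolds outside the chromosomes, and hold 0.612% of the counts.

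Counts were tested with edgeR 4.0.16 (R 4.3.3) by the quasi-likelihood test with TMM scaling and the filterByExpr filter, 3 against 3 libraries in each comparison and all 12 for the interaction. Benjamini-Hochberg adjustment ran over all genes tested. Calls needed an adjusted p below 0.05 and a log2 fold change beyond 0.5 in either direction. Standard errors were obtained from the F statistic and the log2 fold change. Described singly were members called under knockdown or in the interaction, the 3 with the smallest p in each comparison, the 3 highest hnRNP and SR genes and, of the other lists, genes called under knockdown. Members named beyond that rule were named to account for all of them after their values were seen. Genes of the other lists that were under the fold threshold or called only in the interaction were also named after their values were seen. Not all such genes are named. Members and lists were chosen with earlier results of these data known. The fit was tested on simulated data. Alternatives were DESeq2 1.42.0, RLE or library totals as scaling, no filter, a minimum of 10 counts per library, a block for the replicate number, no fold threshold, a joint model of the 12 libraries, leaving out each library, and, chosen after seeing the data, suffixed names added to the member.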

Additional observations from a re-analysis of the deposited data

Results flagged for a closer look

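For 5 of 30 members, beside 12.3% of all genes tested, the effect of PRMT1 knockdown differed between 24 h and 72 h by the interaction of siRNA and time, at an adjusted p under 0.05 in edgeR's quasi-likelihood test over 12 libraries. The interaction was 0.49 for Hnrnpc, -0.76 for Hnrnph3, 0.36 for Hnrnpk, 0.76 for Srsf3 and 0.34 for Hnrnpll on the log2 scale. Only Srsf3 and Hnrnph3 also passed the fold threshold. Over the fits that each leave out 1 library, the adjusted p was passed in 12 of 12 fits for Hnrnpc and Hnrnph3, 10 for Hnrnpk, 6 for Srsf3 and 3 for Hnrnpll. Reads of Hnrnph3 cannot be told apart from those of Rufy2 in 72.9% of its exon bases.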

How the results depend on the processing

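Of the 44 member values past the adjusted p at any fold change, 1 turned its sign under an alternative, Hnrnpu over the course in siPRMT1 cells, at -0.09 with suffixed names added. Of the other 106 values, 37 turned, with sizes of up to 0.31 on the log2 scale. Calls were lost for Srsf3 in the interaction, for Hnrnpa0 and Hnrnph1 over the course in siCtrl cells and for Hnrnpu in siPRMT1 cells. Hnrnph1 lost its call by falling to between -0.49 and -0.44 with library totals, a minimum of 10 counts, the replicate block, or without siCtrl replicate 1 or 2 at 24 h, and Hnrnpa0 with library totals at -0.49. Counts of members called changed as follows. Without the fold threshold, the counts higher and lower were 1 and 1 at 24 h, 2 and 0 at 72 h, 4 and 1 in the interaction, 3 and 14 for the course in siCtrl and 7 and 11 in siPRMT1 cells. With library totals, Hnrnph3 made 1 higher at 24 h, and 2 instead of 4 genes were lower over the course in siCtrl cells. That scaling moved the calls over all genes tested from 267 to 323 higher at 24 h. Over the course in siCtrl cells it moved those called lower from 2828 to 2457. Without the filter on low counts, 2 were higher in the interaction, Srsf3 and Hnrnpc, and 2 over the course in siCtrl cells, Hnrnpd and Hnrnpu. Of all genes tested without the filter, 5.74% and 19.6% were higher in these comparisons at any fold change. With all 12 libraries in 1 model, 2 were higher over the course in siCtrl and 1 in siPRMT1 cells. With suffixed names added, 1 was higher in siPRMT1 cells.

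With 1 library left out, 0 to 1 were higher and 0 to 1 lower at 24 h (1 higher, Hnrnph3, without siCtrl replicate 3, and 1 lower, Srsf3, without siPRMT1 replicate 2). At any fold change, 14.7% of all genes tested were higher in the former fit and 0.777% lower in the latter. In the interaction, 0 to 2 were higher: Srsf3 missed in 6 fits, and Hnrnpc was added in 3, those without siCtrl replicate 3, siPRMT1 replicate 2 or siPRMT1 replicate 3 at 72 h. Over all fits of the interaction with 1 library left out, 4.52% to 11.8% of all genes tested were higher at any fold change. Over the course in siCtrl cells, 3 to 7 were lower, the most without siCtrl replicate 3 at 72 h, and in siPRMT1 cells 1 to 2 were higher, Hnrnpu being lost without siPRMT1 replicate 3 at 24 h or replicate 1 at 72 h. Of all genes tested, 25.8% to 34.4% were lower at any fold change over these siCtrl fits, and 27.1% without siCtrl replicate 3 at 72 h. Over the siPRMT1 fits, 28.5% to 32.1% of all genes tested were higher at any fold change.

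With the replicate number as a block, 0 members were called at 24 h and at 72 h, 1 was higher and 1 lower in the interaction, 1 higher and 3 lower over the course in siCtrl cells, where Hnrnph1 was at -0.49, and 2 higher and 3 lower in siPRMT1 cells. At any fold change the block gave 1 higher and 2 lower at 24 h and 5 higher at 72 h. Over all genes tested, the block gave 3.89% higher and 4.73% lower at 24 h. At 72 h it gave 10.8% higher and 12.1% lower. In the interaction the block gave 8.82% higher and 6.32% lower at any fold change. For the courses it gave 30.3% higher and 29% lower in siCtrl and 31.9% higher and 30.7% lower in siPRMT1 cells. Deviations of same-numbered libraries correlated at -0.169 to 0.216, so the numbers were not taken as pairs. Isoforms, protein and methylation are not measured by counts per gene, and 3 libraries per group limit the size of change that can be called.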
